A study of Trichoderma atroviride IMI 206040 with 36 samples.

Results

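In the wild-type (WT) strain of the filamentous fungus Trichoderma atroviride, 89 of 11863 predicted transcripts were at least 2 times higher in replicates 1 and 3 than in replicate 2, both after a blue light pulse and in darkness. These genes were selected on measured values of the 6 WT libraries, as CPM, each count scaled by its library total, with 0.5 added, among the 7909 transcripts that averaged at least 5 CPM in WT. The ratios alone were met by 92 genes, or 1.16% of the 7909, and 3 of them (Id. 258295, Id. 217154 and Id. 323283) were set aside by name. The other gene named for removal, Id. 33428, did not meet the ratios. The opposite pattern, with replicate 2 at least 2 times above both of the others in light and in darkness, was found in 8 genes.

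T. atroviride grows as a mycelium and forms green asexual spores, the conidia, in response to light, injury and nutrient limitation. As conidia form, fungi make hydrophobins, small secreted proteins that coat aerial structures and spores with a water-repellent layer, and polyketide pigments that darken the spore wall. Nitrate transporters bring in nitrate, a nitrogen source, and nitrate reductase starts its conversion to ammonium. Blue light is read by BLR-1 and BLR-2, the fungal partners that act together as a light-dependent transcription factor, and ENVOY, a small photoreceptor encoded by env-1, tunes that response.

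The libraries described here came from Δenv-1, Δblr-1, Δblr-2 and WT of strain IMI 206040, each with 3 biological replicates collected 30 min after a blue light pulse of 200 μmol per square metre and 3 kept in darkness. All were mycelium grown for 36 h in the dark on cellophane over potato dextrose agar. In Δenv-1 the open reading frame was replaced by a hygromycin resistance gene and 1 transformant, checked by Southern blot, was used. No source used here says how the Δblr-1 and Δblr-2 lines were made. The sources give 1 culture age for all samples, and no label gives a developmental stage or a culture batch. The genes are therefore described by the replicate ratios that chose them.

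Library totals lay between 1519260 and 22011847 estimated counts. Replicate 2 of WT, which set the rule, held 7843798 counts in light and 5604281 in darkness, against 4278616 to 17275233 in the other WT libraries. The env-1 transcript (Id. 150699) stood at 240–296 CPM in the Δenv-1 light libraries and at 28.9–33.5 CPM in the Δenv-1 dark libraries, against 106–112 CPM in WT light and 1.74–2.10 CPM in WT darkness. The env-1 reads were thus not absent from the libraries labelled Δenv-1, and the untranslated region that the replacement left in place cannot be told apart from the rest of the transcript in these counts. The paper places the env-1 reads of this mutant in the 3' untranslated region, which it says the replacement left intact. In Δblr-1 and Δblr-2 env-1 did not exceed 2.39 CPM in light or darkness. The light-induced gene blu-1 (Id. 300570) had 144, 77.2 and 66.7 CPM in Δblr-2 light and 3.05 to 6.26 CPM in Δblr-2 darkness, against 557–765 CPM in WT light and 2.32–3.83 CPM in WT darkness. The libraries labelled Δenv-1 dark also stood apart from each other. A pair of transcripts, Id. 236632 and Id. 298021, held 14.3%, 0.653% and 30.8% of the counts of their replicates 1, 2 and 3, against 0.335% to 3.79% in every other library. Their share lowers every other CPM in the same library, and replicates 1, 2 and 3 had a median of 39.7, 45.7 and 33.4 CPM over the 7909 genes. The submitters left replicate 3 out of their comparisons for its variation. It is left out of the tests here too, and its values are given beside the others.

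In the WT libraries themselves, which chose the genes, the median gene stood at 28.0, 8.29 and 33.5 CPM in light replicates 1, 2 and 3 and at 23.1, 6.07 and 29.7 CPM in dark replicates 1, 2 and 3. The median fold over replicate 2 was 2.87 and 3.44 in light and 3.74 and 3.94 in darkness. The highest of the 6 WT values fell in light replicate 3 for 60 genes, dark replicate 1 for 15, dark replicate 3 for 9 and light replicate 1 for 5. In bulk mycelium, fewer cells of a type and less RNA per cell cannot be told apart. Just inside the limit lay Id. 84521, Id. 88381 and Id. 321796, whose smallest of 4 ratios were 2.02, 2.03 and 2.05. Just outside lay Id. 220698, Id. 224424 and Id. 266127, with 1.99, 1.95 and 1.94.

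The study's tables describe 19 of the 89 genes, 8 of them only as hypothetical proteins. The other 11 are 2 hydrophobins (Id. 146062 and Id. 299543), a conidial pigment polyketide synthase (Id. 154816), a multicopper oxidase (Id. 217148), a cell wall glycoprotein (Id. 158984), a nitrate reductase (Id. 291159), a high affinity nitrate transporter (Id. 217165), an mmc protein (Id. 237745), a protein listed as tail fiber protein (Id. 284537), an ankyrin repeat protein (Id. 321974) and an snf2 family protein (Id. 211836). All 3 genes set aside belong with them by product, being a hydrophobin (Id. 258295), the pigment synthase alb-1 (Id. 217154) and cmp-1 (Id. 323283), which encodes a spore surface protein. Of 7 conidiation-linked genes listed for this description, 7 met the ratios, which is no independent observation because the list was drawn up with these values known. Their summed level was 25.7, 19.5 and 49.6 CPM in Δenv-1 light, 782, 26.9 and 971 CPM in Δenv-1 darkness, and between 20.4 and 61.2 CPM in all 12 Δblr-1 and Δblr-2 libraries. It was 425, 41.3 and 592 CPM in WT light and 325, 73.9 and 630 CPM in WT darkness. None of the 7 light-pulse genes env-1, blu-1, phr-1, cry-1, cry-DASH, frequency and bld-2 met the ratios.

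Outside WT, replicates differed by 2-fold most often in Δenv-1 darkness and in Δblr-1, and for fewer of the 89 genes in the other groups. In Δenv-1 darkness, whose values had no part in the rule, 29 of the 89 genes again had replicates 1 and 3 at least 2 times above replicate 2, where 0.708% of the 7909 genes did. With library sizes scaled by TMM, which corrects for the pair of abundant transcripts, the counts were 34 of the 89 genes and 0.834% of all. Replicate 2 held the lowest value for 70 of the 89 genes, against 3.30% of all genes, or for 80 and 27.3% with TMM scaling. No label ties replicate 2 of Δenv-1 to replicate 2 of WT. The 29 genes were set apart by these Δenv-1 dark values, so their levels in those libraries, and those of the other 60 genes, are a description. In the scatter of dark replicate ratios some of them lie close to the 2-fold line, with others of the 89 just under it.

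**Figure D1:**
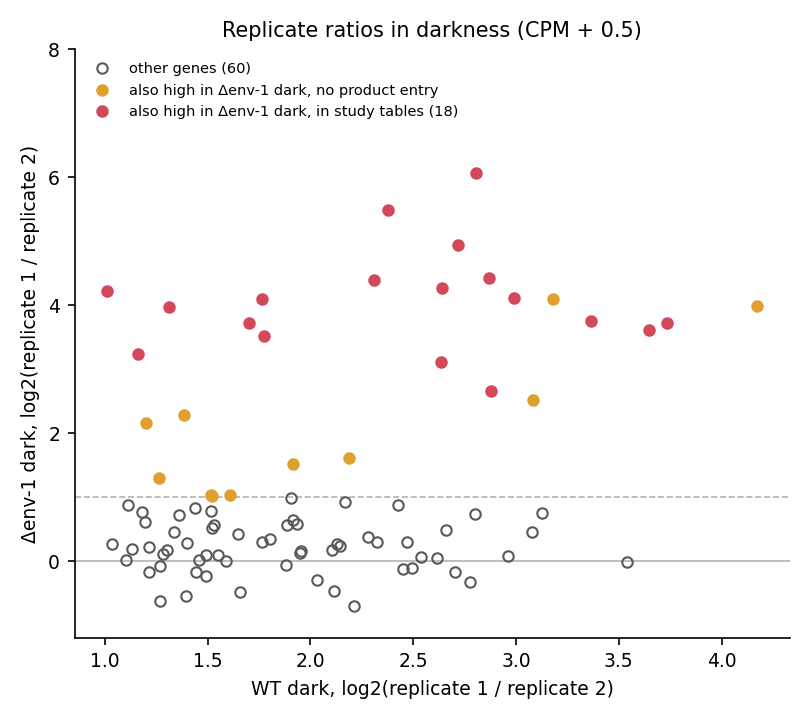
Log2 ratio of replicate 1 to replicate 2 in Δenv-1 darkness (vertical axis) against the same ratio in WT darkness (horizontal axis, used by the rule) for the 89 genes, from CPM with 0.5 added. The dashed line marks a 2-fold ratio, and filled points are coloured by whether the study's tables hold an entry. The 29 filled points have a median of 3.72 on the vertical axis and the 60 open points a median of 0.21.

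The 29 genes hold 18 of the 19 genes with an entry in the study's tables. All 18 are also in the study's list of genes lowered by light in Δenv-1 alone, which was chosen on these libraries. The entries and the list come from the same tables, and the 29 genes were set apart on the same Δenv-1 dark libraries. Neither count is therefore an independent observation. The 18 genes make up 34.6% of that list's 52 genes and 20.2% of the 89. Over the 29, the median level was 1.39, 0.900 and 1.85 CPM in Δenv-1 light and 17.3, 1.05 and 20.3 CPM in Δenv-1 darkness. The Δblr-1 and Δblr-2 libraries ranged from 0.814 to 2.20 CPM, and WT stood at 14.0, 2.17 and 18.2 CPM in light and 14.1, 2.68 and 14.5 CPM in darkness. The median was thus high in 6 libraries, namely replicates 1 and 3 of Δenv-1 darkness, WT light and WT darkness. Over the other 60 genes, which did not meet that ratio in Δenv-1 darkness, the Δenv-1 medians were 8.34, 7.17 and 10.1 CPM in light and 9.70, 8.11 and 11.0 CPM in darkness. The medians per library show both sets beside the flat median of all genes.

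**Figure D2:**
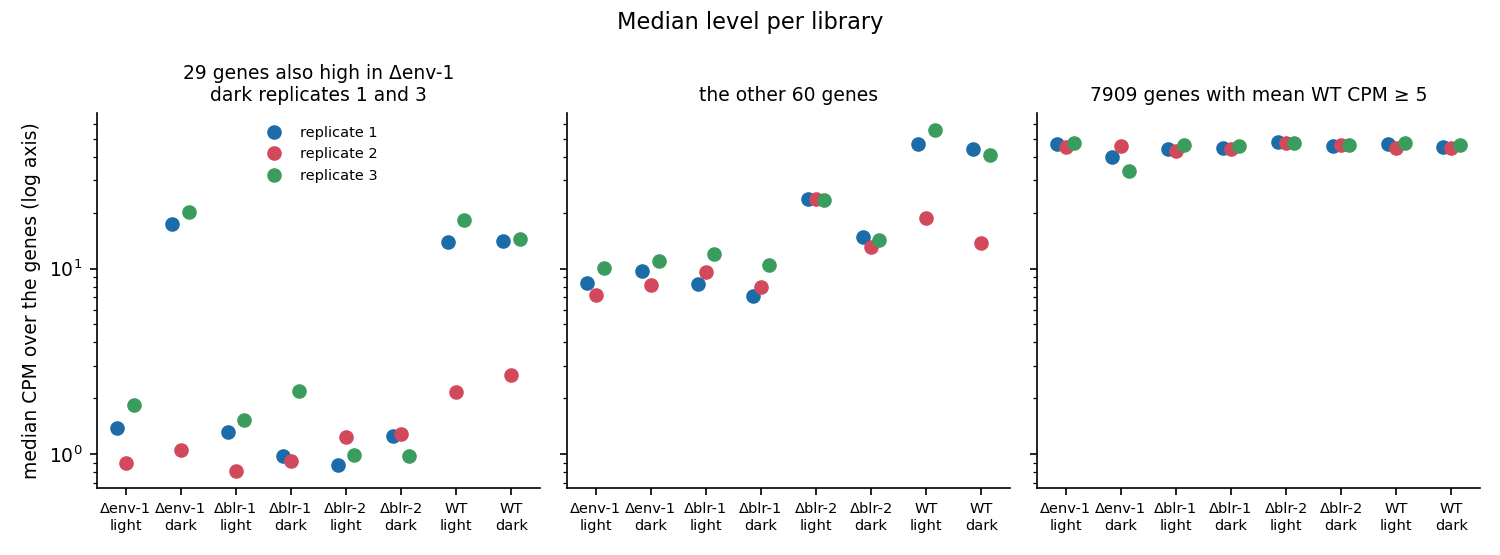
Median CPM (log axis) in each of the 24 libraries, by strain and treatment, with points coloured by replicate number. From left to right the panels give the 29 genes also high in Δenv-1 dark replicates 1 and 3, the other 60 genes, and all 7909 genes with a WT mean of at least 5 CPM. In the left panel Δenv-1 darkness stands at 17.3, 1.05 and 20.3 CPM, in the middle panel at 9.70, 8.11 and 11.0 CPM.

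The hydrophobin Id. 146062 had 0.869, 1.87 and 3.80 CPM in Δenv-1 light and 98.5, 1.71 and 116 CPM in Δenv-1 darkness, against 30.4, 3.06 and 39.0 CPM in WT light and 18.8, 3.21 and 42.5 CPM in WT darkness. Both high libraries of Δenv-1 darkness exceeded every WT library, and the 12 Δblr-1 and Δblr-2 libraries had at most 4.40 CPM. The second hydrophobin, Id. 299543, had 49.3, 2.69 and 56.9 CPM in Δenv-1 darkness and 16.7, 6.42 and 38.1 CPM in WT darkness. Id. 314085, a hypothetical protein, had the widest gap within Δenv-1 darkness, at 85.6, 0.788 and 107 CPM, against 15.5, 1.78 and 24.1 CPM in WT darkness.

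Some of the 29 were no higher in Δenv-1 darkness than in WT. The hypothetical protein Id. 90157, which had the largest smallest ratio within WT (10.3-fold), stood at 21.3, 1.12 and 28.7 CPM in Δenv-1 darkness and at 32.2, 2.68 and 34.8 CPM in WT darkness. The tail fiber entry Id. 284537 stood at 83.3, 9.20 and 100.1 CPM in Δenv-1 darkness and at 108, 17.0 and 163 CPM in WT darkness. Of the 29 genes, 9 were higher in Δenv-1 dark replicate 1 than in every WT library, and 14 were higher in Δenv-1 dark replicate 3 than in every WT library. These 29 were set apart by high values in those same libraries, and the counts over all genes were not taken. With Id. 90157 and Id. 314085, the mmc protein Id. 237745 and the hypothetical proteins Id. 87493 and Id. 128032 made up the 5 genes with the largest ratios in WT. Id. 237745 had 8.04, 0.197 and 9.86 CPM in Δenv-1 darkness and 8.004, 0.178 and 9.12 CPM in WT darkness. The strains were close in replicates 1 and 3, while replicate 2 rests on 3 counts in Δenv-1 and 1 count in WT. Id. 128032 had 34.2, 1.51 and 44.8 CPM in Δenv-1 darkness and 21.9, 2.32 and 36.5 CPM in WT darkness. Id. 87493 had 10.4, 0.328 and 11.6 CPM in Δenv-1 darkness and 8.53, 0.178 and 7.01 CPM in WT darkness, with 5 counts and 1 count in replicate 2. The size of ratios to so few counts is uncertain. In all 3 genes replicate 2 was the low one of both strains.

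The nitrate and pigment genes of the 29 lie next to each other. In the RefSeq gene order of isolate P1 (assembly ASM2064779v1), which is another isolate than the one sequenced and is used here for gene order only, 80 of the 89 genes could be placed. A stretch of 9 genes on chromosome 5 runs from nitrate reductase (Id. 291159) through Id. 256104, which has no product entry, to the nitrate transporter (Id. 217165). It then crosses Id. 45696, Id. 291155 and Id. 154814, none of which met the ratios. It ends with the pigment synthases Id. 217154 and Id. 154816 and the multicopper oxidase Id. 217148, an enzyme class that oxidises phenolic compounds.

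Nitrate reductase, which reduces nitrate to nitrite, had 17.3, 0.328 and 20.3 CPM in Δenv-1 darkness and 16.2, 1.78 and 13.1 CPM in WT darkness. The nitrate transporter had 9.34, 1.05 and 10.3 CPM in Δenv-1 darkness and 9.74, 0.892 and 6.08 CPM in WT darkness. At the other end of the stretch, Id. 154816 had 30.6, 0.985 and 45.0 CPM in Δenv-1 darkness and 18.8, 3.39 and 28.7 CPM in WT darkness. Id. 217148 had 28.2, 1.18 and 39.8 CPM in Δenv-1 darkness and 13.9, 3.75 and 28.7 CPM in WT darkness. Like alb-1, Id. 154816 is listed as a synthase of the conidial pigment, and replicate 2 was low for both it and Id. 217148. Between these ends the break between replicates was absent. Id. 154814 had 14.3, 18.7 and 13.4 CPM in Δenv-1 darkness and 23.8, 20.3 and 22.9 CPM in WT darkness. Replicate 2 was there the highest of the Δenv-1 dark libraries, as it was for 86.4% of all genes by CPM.

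**Figure D3:**
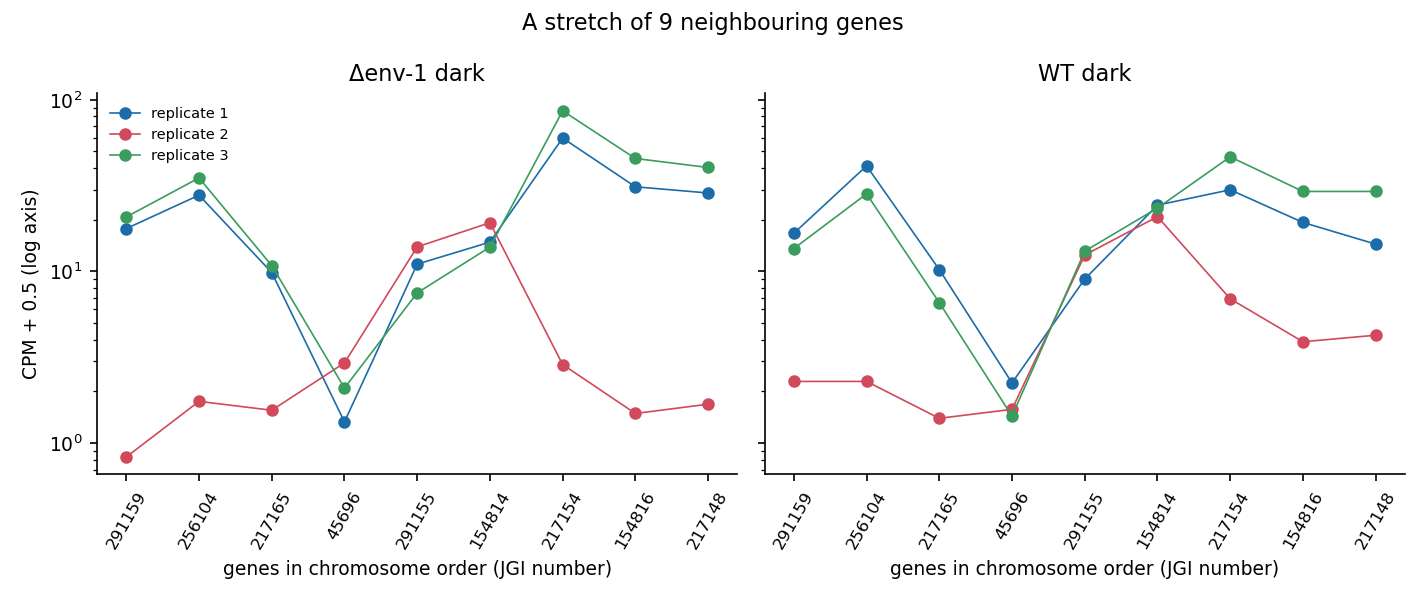
CPM with 0.5 added (log axis) of 9 neighbouring genes in their chromosome order in isolate P1, in Δenv-1 darkness (left) and WT darkness (right), with lines joining the genes of 1 replicate. Replicate 2 lies below the others in the first 3 and the last 3 genes of both panels. In the 3 genes between, it is the highest of the 3 replicates in Δenv-1, as for 86.4% of all genes, with 18.7 CPM for Id. 154814, and no gap of that size is seen in WT.

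Proximity went beyond this stretch. Of the 159 positions directly beside a placed gene of the set, counted once per neighbour, 22 (13.8%) held a gene of the set, and 19 genes had such a neighbour, where the set makes up 0.749% of the 10686 table entries that could be placed. Within 5 positions, 34 of the 80 placed genes had another gene of the set. With the set-aside Id. 217154 included, 35 genes formed 13 such runs. Overlapping or shared reads between neighbours were not tested.

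The 60 other genes include the set's largest CPM values, and CPM is not per length, so that levels are compared within a gene only. Id. 258206, with no product entry, had 680, 453 and 577 CPM in Δenv-1 light and 460, 335 and 290 CPM in Δenv-1 darkness, against 5531, 2566 and 6004 CPM in WT light and 6090, 721 and 3754 CPM in WT darkness. In Δblr-1 it had 810, 493 and 616 CPM in light and 843, 450 and 609 CPM in darkness. Every Δenv-1 library lay below every WT library for this gene. In Δblr-2 it was far higher than in the other mutants, with 7544, 4647 and 5457 CPM in light and 2682, 2263 and 1846 CPM in darkness.

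Several other genes were low in all 3 mutants. Id. 301725 stood between 77.8 and 183 CPM in the 18 mutant libraries, against 2396, 865 and 2570 CPM in WT light and 2675, 343 and 1605 CPM in WT darkness. Id. 246378 stood between 62.8 and 115 CPM in the mutants, and its lowest WT library had 137 CPM. Id. 90691 stood between 38.7 and 55.9 CPM in the mutants and at 82.3 CPM or more in WT. For these 3 genes even WT replicate 2, the low one, was above every mutant library. Id. 133870 differed in that its mutant libraries, at 130 to 225 CPM, overlapped WT dark replicate 2 at 145 CPM.

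Over all 89 genes, every library of the mutant was below every WT library for 34 genes in Δenv-1, 35 in Δblr-1 and 28 in Δblr-2, and no gene had the opposite order. These comparisons with WT are a description, since WT levels entered the rule. The mean of the mutant fell below the mean of WT replicate 2 for 60 genes in Δenv-1, 73 in Δblr-1 and 48 in Δblr-2. The same counts were not taken over all genes, so none of these counts marks the 89 genes off from others.

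The 5 genes with the smallest ratio of replicate 1 to replicate 2 in Δenv-1 darkness were Id. 35595, Id. 158198, Id. 173359, Id. 317057 and Id. 227276. Id. 35595 had 1.18, 2.23 and 1.86 CPM in Δenv-1 darkness and 10.1, 1.78 and 15.2 CPM in WT darkness. Its low level in Δenv-1 thus resembled that of WT replicate 2, and no Δenv-1 dark library stood out. Id. 227276 had 3.19, 4.60 and 4.04 CPM in Δenv-1 darkness and 60.4, 13.6 and 32.0 CPM in WT darkness.

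The replicates of Δblr-1 also differed. A highest replicate at least 2 times the lowest was found for 35 of the 89 genes in Δblr-1 light, where 2.47% of all 7909 genes had one, and for 19 in Δblr-1 darkness, where 0.936% had one. The library of Δblr-1 light replicate 1 was the shallowest of all, and the part of counting error in these ranges was not tested. In darkness, replicate 3 was the highest of the 3 for 65 of the 89 genes, against 43.8% of all genes, and replicate 2 the lowest for 54, against 30.6% of all genes. In light, replicate 3 was the highest for 50 genes, against 46.0% of all genes, and replicate 2 the lowest for 40, against 40.5%. Replicate 2 was lowest and replicate 3 highest for 42 genes in darkness but for 24 in light. This joint order was not counted over all genes.

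The 5 genes with the highest mean CPM in Δblr-1 were Id. 258206, Id. 302809, Id. 133870, Id. 131157 and Id. 301725. Id. 131157 had 137, 96.3 and 215 CPM in Δblr-1 light and 129, 98.2 and 201 CPM in Δblr-1 darkness, against 265, 85.3 and 495 CPM in WT light and 253, 99.7 and 402 CPM in WT darkness. Its order of replicates, with 2 lowest and 3 highest, was the same in all 4 groups, although the gap was smaller in Δblr-1. Id. 302809 had 183, 122 and 239 CPM in Δblr-1 darkness and 454, 155 and 703 CPM in WT darkness. Id. 137421 and Id. 288146, the last of the 10 genes with the highest WT mean together with Id. 218763, showed that same order in both Δblr-1 groups.

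In the remaining groups the 2-fold range was found for 11 genes in Δenv-1 light (0.695% of all genes), 34 in Δenv-1 darkness (1.42%), 3 in Δblr-2 light (0.961%) and 11 in Δblr-2 darkness (1.07%). In Δblr-2 light the median range between replicates was 0.33 on the log2 scale, against 0.21 over all genes. This was the smallest median range of the 6 mutant groups, the others lying between 0.39 and 0.80.

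The light response asks whether the pulse moved these genes within a strain. Light was compared with darkness by edgeR's quasi-likelihood test over 9605 genes in 23 libraries, and a gene was called where its adjusted p did not exceed 0.05 and its log2 fold change was 1 or more in either direction. All 89 genes passed the filter on low counts, but 84 would have passed on the mutant libraries alone. In Δblr-2, 23 of the 89 genes rose in light, where 6.01% of all tested genes did, and 1 fell, where 1.36% did. Of the 23 genes 4 belong to the 29 described above. In Δenv-1, 5 genes fell, where 0.312% of all genes did, and none rose. In Δblr-1 no gene was called, where 0.198% of all genes were, and in WT none was called, where 1.28% were. At an unadjusted p under 0.05 there were 6 genes in Δblr-1 and 1 in WT, and DESeq2 called 0 in both. With libraries of 1 replicate number as a block, these unadjusted counts were 14 and 28. The unadjusted counts were not taken over all genes, so they do not mark the 89 genes off from others. The WT replicates were chosen to differ for these genes, so a missing call in WT does not show that light left them unmoved. All 4 strains shared 1 estimate of each gene's spread, so the WT spread also entered the tests of the other strains. A missing call there has the same limit. With the mutant libraries alone, 1 gene was called in Δblr-1 (32 of all 9576 genes) and 14 were called lower in Δenv-1 (46 of 9576).

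**Figure D4:**
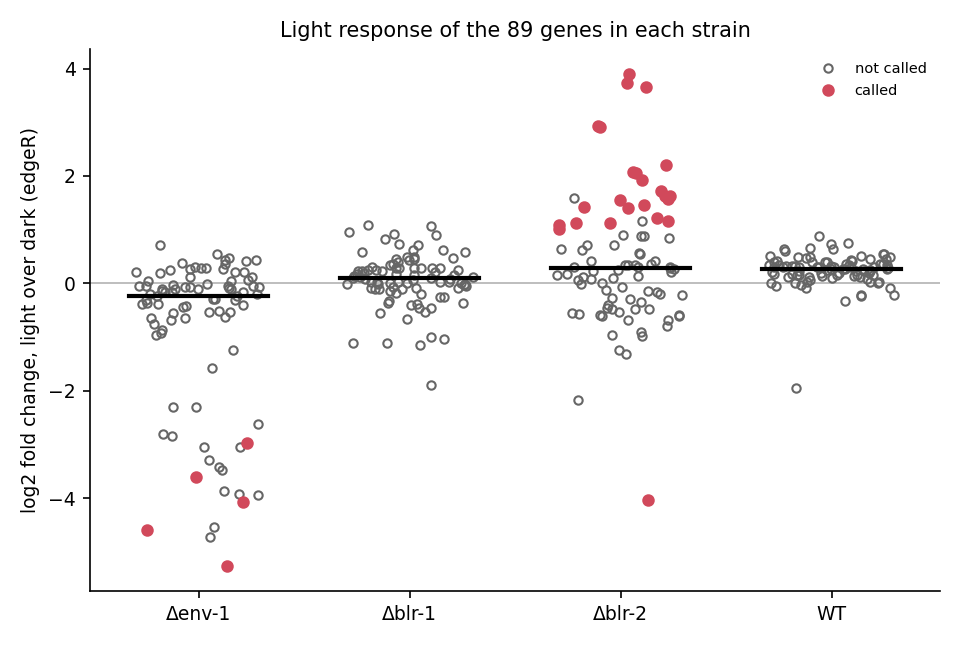
Log2 fold change of light over darkness from edgeR for the 89 genes in Δenv-1, Δblr-1, Δblr-2 and WT, 1 point per gene with horizontal scatter for legibility. Filled points passed the test and bars mark the medians, at -0.23, 0.09, 0.28 and 0.28. The 23 filled points above 0 are all in Δblr-2.

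In Δblr-2 the largest rise was that of the ankyrin repeat protein Id. 321974, which had 81.4, 48.7 and 59.6 CPM in light and 3.34, 4.06 and 4.84 CPM in darkness. Its log2 fold change was 3.90 ± 0.55 (SE, edgeR adjusted p = 1.1e-05, n = 3 each). The groups were far apart, and every Δblr-2 light library exceeded every WT library, the highest of which had 12.9 CPM. Ankyrin repeats are protein-binding modules.

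The snf2 family protein Id. 211836, of a family of ATP-driven chromatin remodellers and helicase-like proteins, had 838, 598 and 745 CPM in Δblr-2 light and 50.9, 59.2 and 63.6 CPM in Δblr-2 darkness. Its log2 fold change was 3.66 ± 0.34 (SE, edgeR adjusted p = 3.9e-08, n = 3 each). In Δblr-1 it had 44.8, 48.4 and 37.2 CPM in light and 17.0, 22.6 and 22.7 CPM in darkness, groups that did not overlap. That log2 change of 1.08 ± 0.39 (SE, edgeR adjusted p = 0.22) missed the threshold, but passed it with libraries of 1 replicate number as a block, where it was the single call among the 89 in Δblr-1. In Δenv-1 its light and dark groups overlapped, at 28.8–31.4 and 19.5–41.2 CPM.

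Id. 88568, with no product entry, had 34.3, 25.3 and 30.6 CPM in Δblr-2 light and 1.67, 2.31 and 2.51 CPM in Δblr-2 darkness (log2 fold change 3.72 ± 0.46, SE). Id. 317584 had 77.3, 71.5 and 80.5 CPM in light and 8.76, 11.2 and 10.1 CPM in darkness (2.93 ± 0.44). Id. 299100 had 262, 235 and 274 CPM in light and 31.3, 33.9 and 37.8 CPM in darkness (2.92 ± 0.35). In each of the 3 genes the light and dark groups did not overlap, and every Δenv-1 and Δblr-1 library lay below every Δblr-2 light library. Id. 258206, also the gene with the highest mean CPM in Δblr-2, rose by 1.42 ± 0.46 on the log2 scale (SE, edgeR adjusted p = 0.019), and Id. 218763 by 2.05 ± 0.43. Of the next 4 by mean CPM in Δblr-2, Id. 211836 and Id. 299100 are given above, and Id. 302809 and Id. 133870 were not called. The other calls reached down to a log2 change of 1.02 for Id. 134170, named here as the smallest. For 29 of the 89 genes all 3 Δblr-2 light libraries lay above every other mutant library. The share over all genes was not taken for this order, so it is a description only. Id. 302809 had 167, 178 and 157 CPM in Δblr-2 light and 266, 266 and 219 CPM in Δblr-2 darkness.

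An interaction term, called at an adjusted p up to 0.05, asked whether these rises differed from those of other strains. Against WT, 10 of the 89 genes had a larger light response in Δblr-2, where 11.6% of all genes did. Against Δblr-1, 6 had a larger response, where 10.2% of all genes did. As shares of the 89 genes these are 11.2% and 6.74%. How they stood to all genes depended on the setting. With a log2 difference of at least 1 also required, the same counts of members stood against 3.96% and 3.77% of all genes. Same-numbered light and dark libraries correlated less in Δblr-2 than in WT and Δblr-1. With a replicate block, 23 genes had a larger response in Δblr-2 than in WT (13.4% of all genes) and 13 a smaller one (10.1%). Against Δblr-1 the blocked counts were 18 larger (11.4% of all genes) and 7 smaller (7.34%). Without WT dark replicate 2, 19 genes had a larger response than in WT, against 10.6% of all genes. Both differences share the Δblr-2 libraries. The 6 genes called against Δblr-1, also among the 10, were Id. 321974, Id. 211836, Id. 88568, Id. 317584, Id. 299100 and Id. 317057. The difference against Δblr-1 was 3.66 ± 0.84 on the log2 scale for Id. 88568 and 1.97 ± 0.46 for Id. 317057 (SE).

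**Figure D5:**
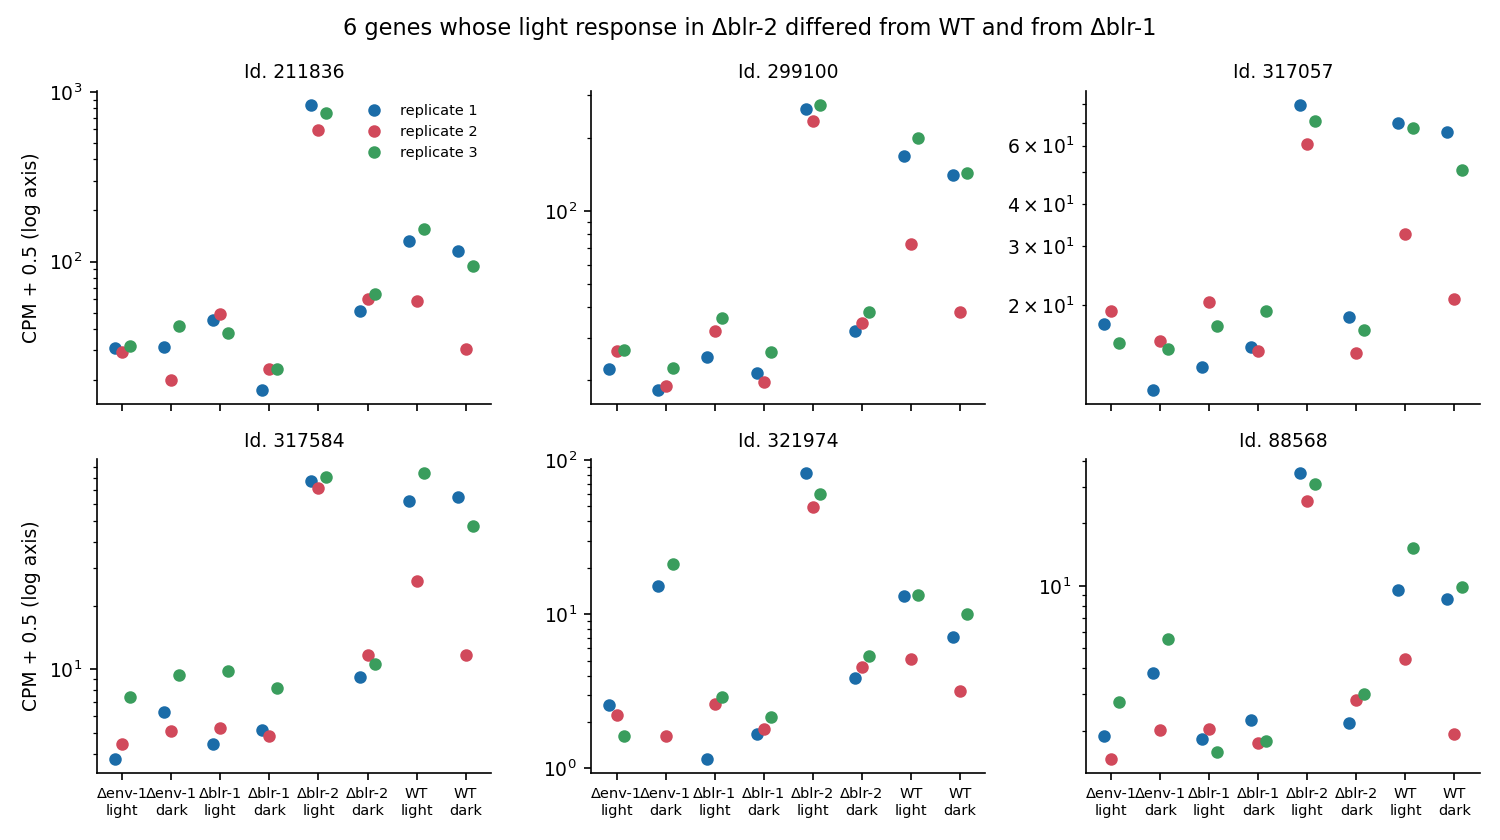
CPM with 0.5 added (log axes, scaled per panel) of the 6 genes whose light response in Δblr-2 exceeded both that in WT and that in Δblr-1, in all 24 libraries by strain and treatment, coloured by replicate number. Id. 211836 has 598–838 CPM in Δblr-2 light and 50.9–63.6 CPM in Δblr-2 darkness, and its WT libraries show the low replicate 2 that chose the gene.

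Genes in runs were called higher in Δblr-2 light about as often as the set as a whole, 8 of 34 (23.5%) and 23 of 89 (25.8%). Of the 13 runs of nearby genes, 3 consisted only of genes called higher in Δblr-2 light, 7 genes in all. In the run of Id. 218763, Id. 317584 and Id. 283096 on chromosome 3 the log2 changes were 2.05, 2.93 and 1.62. The pair Id. 164926 and Id. 318965 on chromosome 2 changed by 1.47 and 1.40, and the pair Id. 319933 and Id. 258064 on chromosome 1 by 1.08 and 1.63. The adjacent genes Id. 321268, Id. 301725 and Id. 227276 had log2 values of 1.15, -0.68 and -1.32 in Δblr-2, none of which passed the test. The genes of these runs were named after their values were seen.

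The gene that fell in Δblr-2 light was Id. 260353, with a log2 change of -4.04 ± 1.40 (SE, edgeR adjusted p = 0.027). It had 0.166, 1.93 and 1.10 CPM in light and 35.9, 20.3 and 10.4 CPM in darkness. Its values jumped between replicates in every strain, for example 48.6, 8.34 and 2.88 CPM in Δblr-1 darkness. None of its 24 estimated counts was a whole number, as arises when reads are shared with a similar transcript, so its level is uncertain.

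In Δenv-1 the 5 genes that fell were the hypothetical proteins Id. 314085, Id. 86883 and Id. 84521, the hydrophobin Id. 146062 and the cell wall glycoprotein Id. 158984. All 5 are among the 29 genes with the split replicates, and the calls rest on dark replicate 1. Id. 86883 had 2.09, 1.25 and 2.47 CPM in Δenv-1 light against 55.5 and 1.31 CPM in the 2 dark libraries tested, and 65.9 CPM in the library left out. Its fitted log2 fold change was -4.06 ± 1.07 (SE, edgeR adjusted p = 0.029, n = 3 light and 2 dark). Dark replicate 2 stood at the level of the light libraries for this gene, so the groups overlapped.

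Id. 158984 had 4.87, 5.12 and 4.31 CPM in Δenv-1 light against 64.3 and 4.40 CPM in the dark libraries tested, and the other genes had the same form. Their fitted log2 changes were -5.26 ± 1.19 for Id. 314085, -4.60 ± 1.11 for Id. 146062, -3.61 ± 0.91 for Id. 84521 and -2.97 ± 0.78 for Id. 158984 (SE). Without dark replicate 1 no gene of the 89 was called, and the 5 genes had values between 0.14 and 0.67 on the log2 scale. Without light replicates 1, 2 and 3 in turn, 1, 0 and 2 genes were called lower, where 21, 16 and 23 of all genes tested were. Without dark replicate 2, which leaves 1 dark library, the values of the 5 genes lay between -6.28 and -3.93. With replicate 3 included, 20 of the 89 genes were called lower, where 1.17% of all genes were. With replicate numbers as a block the count was 17, where 0.552% of all genes fell. The 20 genes with replicate 3 and the 17 with the block were all among the 29. Of the 5 genes, 3 stayed called with the block, while Id. 158984 had -1.90 (edgeR adjusted p = 0.053) and Id. 84521 had -2.52 (edgeR adjusted p = 0.05001), both just missing the threshold. The pair of abundant transcripts above moved with the same libraries, and their part in the result was not tested.

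The light response in Δenv-1 minus that in WT was called for 0 of the 89 genes by edgeR, where 0.0208% of all genes were called. At an unadjusted p under 0.05 there were 19, or 42 with a replicate block, and DESeq2 called 0. These unadjusted counts were not taken over all genes, so they do not mark the 89 genes off from others. Of the 89 fitted differences 8 were positive. Without Δenv-1 dark replicate 2, which leaves 1 Δenv-1 dark library, the median difference over the 89 genes was -0.92, against -0.51 in the main fit. A difference between the strains was not detectable with all libraries of the test in the fit. The WT replicates that chose the genes enter this test, so a missing call does not show that the strains responded alike.

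Across the 4 strains, light moved the median of the 89 genes by -0.23 on the log2 scale in Δenv-1, 0.09 in Δblr-1, 0.28 in Δblr-2 and 0.28 in WT, where the medians over all tested genes lay between -0.02 and 0.00. In WT, 80 of the 89 genes had a positive value. That median was -0.12 without WT light replicate 3 and -0.15 without WT dark replicate 2, so its sign rested on single libraries.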

How the data were processed

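RNA of T. atroviride IMI 206040 mycelium was sequenced by the submitters from TruSeq libraries. The authors used kallisto (version not given in the sources used here) on predicted transcripts of the v2 genome, and deposited estimated counts per transcript, not normalized, of which 8.35% of the values used here were not whole. The deposited table pairs 24 columns with the libraries described here by name, and 12 other columns of per-sample values were not used.

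The 89 genes and the gene lists were chosen with earlier results of these data known. Levels are CPM from column sums. Counts were rounded and fitted in edgeR 4.0.16 (R 4.3.3) with filterByExpr at a minimum count of 10, TMM factors, 1 mean per strain and treatment, and the quasi-likelihood test, without Δenv-1 dark replicate 3. Adjusted p-values are by Benjamini-Hochberg over all genes tested. The interactions with Δblr-2 were added after seeing the data, as were fits to the mutant libraries alone and TMM scaling of the Δenv-1 dark ratios. Alternatives were RLE factors, no filter, the likelihood ratio test, DESeq2 1.42.0, a replicate block, the library left out by the submitters, other thresholds and each replicate left out. The scripts were tested on simulated data. Values of at most 3 counts correspond to 0.136 to 1.97 CPM by library and bound counting error only.

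Genes were named where the study's tables describe them, for the 10 highest WT means, the 5 largest ratios in WT, 3 genes on each side of the limit, up to 5 called genes per contrast and direction with the largest change, the 5 largest and 5 smallest Δenv-1 dark ratios of replicate 1 to 2, and the 5 highest means in Δblr-1 and in Δblr-2.

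Same-numbered light and dark libraries deviated together from their group means over 9605 genes, with correlations of 0.10 to 0.16 in Δenv-1, 0.12 to 0.20 in Δblr-1 and 0.21 to 0.53 in WT, and 0.00071 to 0.087 in Δblr-2. Without the 89 genes the values were 0.181, 0.069 and 0.079 in Δenv-1 replicates 1, 2 and 3. In Δblr-2 they were 0.004, 0.086 and 0.039, so the ranges of these strains overlapped. Each light library correlated best with its same-numbered dark library, except replicate 1 of Δblr-2. Pairing by number was thus clearest in WT, weak in Δenv-1 and Δblr-1, and weakest in Δblr-2. The printed log2 changes and calls come from the fit without the block, and blocked values stand beside results that they change. The labels give the replicates as biological, and the pairing rests on these correlations alone.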

Additional observations from a re-analysis of the deposited data

Results flagged for a closer look

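Light responses that differed between strains by the interaction test were found for 10 genes in Δblr-2 minus WT and for 6 in Δblr-2 minus Δblr-1. Their background shares, and the counts with a replicate block, are given above. On the log2 scale the differences from WT and from Δblr-1 were 3.12 and 2.58 for Id. 211836, 2.45 and 2.34 for Id. 299100, 1.88 and 1.97 for Id. 317057, 2.44 and 2.76 for Id. 317584, 3.16 and 3.29 for Id. 321974, and 3.11 and 3.66 for Id. 88568. In Δenv-1 dark replicate 3, which entered only the alternative with that library included, 16 of the 89 genes were above every WT dark library, where 1.88% of the 7909 genes were, and all 16 belong to the 29 genes with the split Δenv-1 dark replicates.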

How the results depend on the processing

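The set itself depended on its limits. It held 175 genes at a 1.5-fold limit and 25 at 3-fold, and 70 to 106 under the other pseudocounts, minimum levels and TMM scaling. A 3-fold range among replicates left 4 genes in Δenv-1 light, 7 in Δblr-1 light, 3 in Δblr-1 darkness, 1 in Δblr-2 light and 4 in Δblr-2 darkness. Over the 7909 genes the shares were 0.303%, 0.733%, 0.291%, 0.291% and 0.379%. With 1 added to each CPM a 2-fold range was met by 5, 23, 11, 1 and 6 genes in those groups. The shares over all genes were then 0.556%, 1.93%, 0.670%, 0.733% and 0.784%. Calls in Δenv-1 light, all lower, numbered 16 by the likelihood ratio test, 11 by DESeq2, 20 with dark replicate 3 and 14 with the mutant libraries alone. Over all genes tested, 53 of 9605, 42 of 9605, 112 of 9534 and 46 of 9576 were called lower in those fits. The mutant libraries alone also gave 1 call in Δblr-1 and 21 for Δblr-2 minus Δblr-1, where 32 and 1739 of all 9576 genes tested were called. With a replicate block, the fit gave 17 calls in Δenv-1, 1 in Δblr-1 and 26 in Δblr-2, where 152, 40 and 701 of all 9605 genes were called. It gave 36 for Δblr-2 minus WT (23 higher and 13 lower) and 25 for Δblr-2 minus Δblr-1 (18 higher and 7 lower). The blocked fit gave 0 calls in WT and 0 for Δenv-1 minus WT. Pairing by number was weak in Δenv-1 and Δblr-1 and weakest in Δblr-2.

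Leaving out each library gave 0 calls in Δblr-1 (5 to 18 of all genes), 15 to 20 in Δblr-2 (591 to 813) and 0 to 1 in WT (101 to 148). With the 2 tested dark libraries kept, it gave 0 to 2 in Δenv-1 (100 to 107) and 0 for Δenv-1 minus WT (2 to 3). There were 7 to 19 for Δblr-2 minus WT (1424 to 2198) and 4 to 6 for Δblr-2 minus Δblr-1 (1049 to 1592). Between 9515 and 9634 genes were tested in these fits. In Δblr-2 the lowest count came without light replicate 1, and the highest count of Δblr-2 minus WT without WT dark replicate 2. Without Δenv-1 dark replicate 1 the values became positive for Id. 314085 (0.67), Id. 86883 (0.51), Id. 146062 (0.44), Id. 84521 (0.38) and Id. 158984 (0.14), and without dark replicate 2 they were -6.28, -5.08, -5.60, -4.62 and -3.93. The cause was not tested. With 2 dark libraries in Δenv-1, the lone library left in such a fit is assumed to vary like the other groups. Leaving out each library moved the median responses over -0.60 to 0.18 in Δenv-1, -0.10 to 0.31 in Δblr-1, 0.20 to 0.29 in Δblr-2 and -0.15 to 0.64 in WT. For genes at a few CPM, the shallow libraries of Δblr-1 light replicate 1 and Δblr-2 dark replicate 1 limit what can be seen.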
